A study of Homo sapiens with 6 samples.

Results

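The SPRR, LCE and S100A genes, together with *IVL*, *FLG* and *RPTN*, were examined in RNA-Seq data of 21NT cells. Members were chosen by symbol alone, as every gene of the expression table whose symbol was SPRR, LCE or S100A followed by a number, or *IVL*, *LOR*, *FLG*, *RPTN* or *CRNN*. This gave 33 of 20824 genes: 16 S100A genes, 11 SPRR genes, 3 LCE genes, *IVL*, *FLG* and *RPTN*. *LOR*, *CRNN* and other LCE genes, which belong to the same class, had no row under these symbols and could not be analysed here. All 33 lie within 1.65 Mb of chromosome 1 (GRCh37 chr1:151955391-153604515).

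21NT is a non-invasive human breast cancer cell line. The 3 stable lines compared were 21NT + EV, which carries the empty pcDNA3.1 vector, 21NT + TBX3iso1 and 21NT + TBX3iso2, which carry the cDNA of 1 or the other splice isoform of the T-box repressor *TBX3* in the same vector. TBX3iso2 contains an additional exon within the DNA-binding domain. Each line was a pool of stably transfected clones, and all 3 were kept in the selection agent G418 and in medium with insulin, EGF, hydrocortisone and serum. There were 2 libraries per line, and nothing in the sources used here says whether they came from separate cultures, so the tests measure the spread between these libraries, which may be technical.

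Values are RPKM, in which read numbers are scaled to transcript length and library depth, so levels of different genes can be set side by side. Each library held between 43176600 and 54512400 alignments. The RPKM of the *TBX3* gene was 8.52 and 8.24 in EV, 13.1 and 11.4 in TBX3iso1, and 17.5 and 15.5 in TBX3iso2. It was thus highest in TBX3iso2, and the 1.45-fold difference of TBX3iso1 from EV lay under the 1.5-fold threshold used throughout. The RPKM of the gene does not separate the isoforms. By other measures, RT-qPCR with isoform-specific primers and western blot of total TBX3, the authors report up-regulation in these lines. Isoform, transfected pool and *TBX3* level differ together between the *TBX3* lines and cannot be told apart. Epithelial markers were present in every library (*EPCAM* between 165 and 232 RPKM, *KRT8* between 541 and 768). Of the basal keratins, *KRT5* was between 2.73 and 6.99 RPKM and *KRT17* between 5.08 and 8.59, and *KRT14* did not exceed 0.0398. *KRT5* rose in both *TBX3* lines (log2 fold change 1.20 and 1.25), *CDH1* fell in TBX3iso1 (-0.70) and *KRT19* fell in TBX3iso2 (-0.72), and the part of these markers in the results was not tested. Fibroblast markers summed to 4.6 to 4.86 RPKM in EV and 7.14 to 8.69 in the *TBX3* lines, most of it *COL1A1*, and their part in the results was not tested.

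The epidermal differentiation complex is a dense gene cluster on chromosome 1 that serves the outer layers of the skin. *IVL* (involucrin) and the small proline-rich proteins of the SPRR family are precursors of the cornified envelope, the protein shell that transglutaminases crosslink beneath the membrane of a dying keratinocyte. LCE genes encode late envelope proteins, and *FLG* (filaggrin) and *RPTN* (repetin) bind and bundle keratin filaments or join the envelope. The S100A genes encode small calcium-binding proteins that work inside the cell on partners such as annexins and, when released, act on receptors such as *AGER* and *TLR4*. Several of them are used as tumour or inflammation markers.

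Levels covered a wide range. *S100A6* was the 10th most abundant gene of 20824 in EV, *S100A9* ranked 44 and *S100A11* ranked 45. In sum, the S100A genes held 1% and 1.04% of all RPKM in EV, 1.14% and 1.28% in TBX3iso1, and 0.966% and 1.07% in TBX3iso2. The envelope genes lay far lower, and the summed RPKM of *IVL* and the SPRR genes was 4.94 and 5.17 in EV, 17.6 and 20.3 in TBX3iso1, and 3.19 and 4.04 in TBX3iso2.

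**Figure D1:**
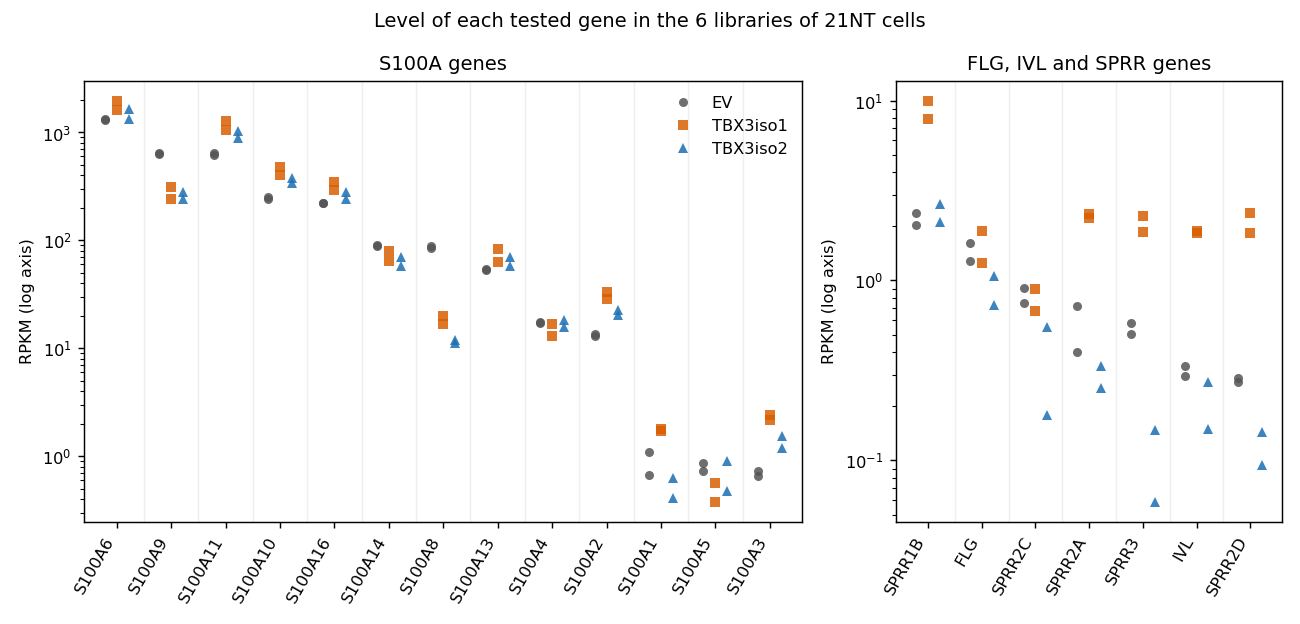
RPKM (log axis) of the 20 tested genes in each of the 6 libraries, ordered by their mean in EV, with 1 symbol per library. S100A6 lies above 1000 RPKM in every library, while IVL, SPRR1B, SPRR2A, SPRR2D and SPRR3 lie higher in both TBX3iso1 libraries than in the other 4.

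Of the 33 members, 20 reached 0.5 RPKM on average across the libraries and were tested, and 13 were not. A gene was called at a limma adjusted p (Benjamini-Hochberg over 12805 genes) under 0.05 and a fold change over 1.5, and rises and falls below are calls in this sense. In TBX3iso1 against EV, 10 tested members were higher and 2 lower, where 7.46% of all genes tested were called higher and 14.1% lower. In TBX3iso2 against EV, 3 were higher and 6 lower, against 8.94% and 12.3% of all genes tested. Both comparisons share the EV libraries. The median log2 fold change of the tested members was 0.67 in TBX3iso1 and -0.34 in TBX3iso2, beside -0.05 and -0.00 over all genes tested. *IVL*, *SPRR2A*, *SPRR2D* and *SPRR3* passed the level filter only through their TBX3iso1 values, as their mean over the other lines was 0.264, 0.427, 0.199 and 0.323 RPKM. They therefore had to differ between lines, and the counts describe the genes tested and not all 33.

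*IVL* and most of the detected SPRR genes rose in TBX3iso1 and in no case rose in TBX3iso2. *IVL* encodes involucrin, an early scaffold of the cornified envelope. Its RPKM was 0.296 and 0.336 in EV, 1.89 and 1.83 in TBX3iso1, and 0.273 and 0.150 in TBX3iso2. Both TBX3iso1 libraries stood above the other 4, and both TBX3iso2 libraries stood under both EV libraries, replicate 1 by little. The log2 fold change was 2.24 (95% interval 1.72 to 2.76, limma adjusted p = 0.000234) in TBX3iso1 and -0.45 (-0.96 to 0.07, limma adjusted p = 0.139) in TBX3iso2. In these bulk libraries more cells that express a gene and more RNA per cell cannot be told apart.

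*SPRR1B* was the most abundant SPRR gene. Its RPKM was 2.37 and 2.04 in EV, 7.85 and 9.93 in TBX3iso1, and 2.12 and 2.67 in TBX3iso2. EV and TBX3iso2 overlapped, and TBX3iso1 lay 3.88-fold above EV (log2 fold change 1.96, limma adjusted p = 9.4e-05). The difference of TBX3iso2 from EV was 0.11 on the log2 scale with a 95% interval of -0.26 to 0.48, so a change of up to that size in either direction was not resolved. Its neighbour *SPRR1A*, with 0.0700 and 0.345 RPKM in EV, 0.738 and 0.817 in TBX3iso1 and 0.0769 and 0.140 in TBX3iso2, was too low to be tested. The TBX3iso1 libraries were again the highest, and without the level filter the log2 fold change of *SPRR1A* in TBX3iso1 was 1.67 with a limma adjusted p of 0.0641.

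*SPRR3*, an envelope precursor best known from internal squamous epithelia such as the oesophagus, separated the isoforms most on the scale used, log2(RPKM + 0.1). With 1 RPKM added in place of 0.1, *SPRR1B* differed more between the isoforms (log2 difference -1.54, beside -1.48 for *SPRR3*). The RPKM of *SPRR3* was 0.504 and 0.581 in EV, 2.29 and 1.87 in TBX3iso1, and 0.148 and 0.0589 in TBX3iso2. The 3 lines did not overlap. It rose in TBX3iso1 (log2 fold change 1.75, SE 0.244, limma adjusted p = 0.00108) and fell in TBX3iso2 (log2 fold change -1.69, SE 0.244, limma adjusted p = 0.00124).

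*SPRR2D* showed the same order, with 0.271 and 0.288 RPKM in EV, 1.83 and 2.38 in TBX3iso1, and 0.143 and 0.0945 in TBX3iso2. *SPRR2A* had 0.402 and 0.721 RPKM in EV, 2.21 and 2.35 in TBX3iso1, and 0.252 and 0.334 in TBX3iso2. In both genes the lines did not overlap, with TBX3iso1 highest and TBX3iso2 lowest. *SPRR2D* rose by 2.53 on the log2 scale in TBX3iso1 and *SPRR2A* by 1.89 (limma adjusted p = 0.000102 and 0.000804). Their TBX3iso2 values were close to the threshold, with log2 fold changes of -0.80 for *SPRR2D* and -0.72 for *SPRR2A* (limma adjusted p = 0.0163 and 0.046).

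*SPRR2C*, which the annotation lists as an unprocessed pseudogene, did not follow the coding genes. Its RPKM was 0.913 and 0.751 in EV, 0.672 and 0.893 in TBX3iso1, and 0.179 and 0.553 in TBX3iso2. TBX3iso1 overlapped EV (log2 fold change -0.09), and TBX3iso2 was lower (log2 fold change -1.12, limma adjusted p = 0.0395). *FLG* had 1.61 and 1.28 RPKM in EV, 1.89 and 1.25 in TBX3iso1, and 1.06 and 0.731 in TBX3iso2. With all 6 libraries in the fit and no term for the replicate number, *FLG* was called in neither line. TBX3iso2 lay under both other lines in each library (log2 fold change -0.65 against EV, limma adjusted p = 0.0599). It was called lower there with only the 2 lines compared (limma adjusted p = 0.033). The same held without either TBX3iso1 library and without TBX3iso2 replicate 1.

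The falls of SPRR genes in TBX3iso2 rest on small values. The call of *SPRR2A* against EV held in 6 of 15 alternative settings, that of *SPRR2C* in 8, of *SPRR2D* in 11 and of *SPRR3* in 14, and with 1 RPKM added in place of 0.1 no SPRR gene was called in TBX3iso2. Single libraries decided several of these calls. *SPRR2A* lost its call without EV replicate 2 (log2 fold change -0.36), without TBX3iso2 replicate 1 (-0.57) and without either TBX3iso1 library (limma adjusted p = 0.0525 and 0.0531). *SPRR2C* lost it without either EV library (-0.99 and -1.25) and without TBX3iso2 replicate 1 (-0.51), and was at -1.73 without TBX3iso2 replicate 2. *SPRR2D* lost it without either EV library (limma adjusted p = 0.0693 and 0.088) and without TBX3iso2 replicate 2 (0.0592). *IVL*, in turn, was called lower in TBX3iso2 without TBX3iso2 replicate 1 (-0.74, limma adjusted p = 0.0204). The rises of *IVL*, *SPRR1B*, *SPRR2A*, *SPRR2D* and *SPRR3* in TBX3iso1 kept their call in every setting that tested them. With 1 RPKM added, however, the log2 fold changes fell to between 0.99 for *SPRR3* and 1.62 for *SPRR1B*. Of these genes, all but *SPRR1B* passed the level filter only through their TBX3iso1 values. A difference between lines was thus built into settings with that filter, and a filter at a mean of 2 RPKM left these genes out.

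The SPRR2 values also carry an uncertainty of read assignment, since up to 10 alignments per read were kept. Of the 51-base words of the transcript used here for each gene, 34.0% in *SPRR2A*, 33.0% in *SPRR2D* and 16.6% in *SPRR2C* occurred in another gene as well. For *SPRR1B* the share was 7.91%, and for *IVL* and *SPRR3* it was 0%. Reads of the SPRR2 copies may thus have been divided between them, whereas no shared word was found in *IVL* or *SPRR3*. Multiplying RPKM by transcript length and depth gives about 14 to 208 alignments per library for *IVL*, 2.3 to 105 for *SPRR3*, 2.8 to 80.9 for *SPRR2D* and 55 to 309 for *SPRR1B*.

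**Figure D2:**
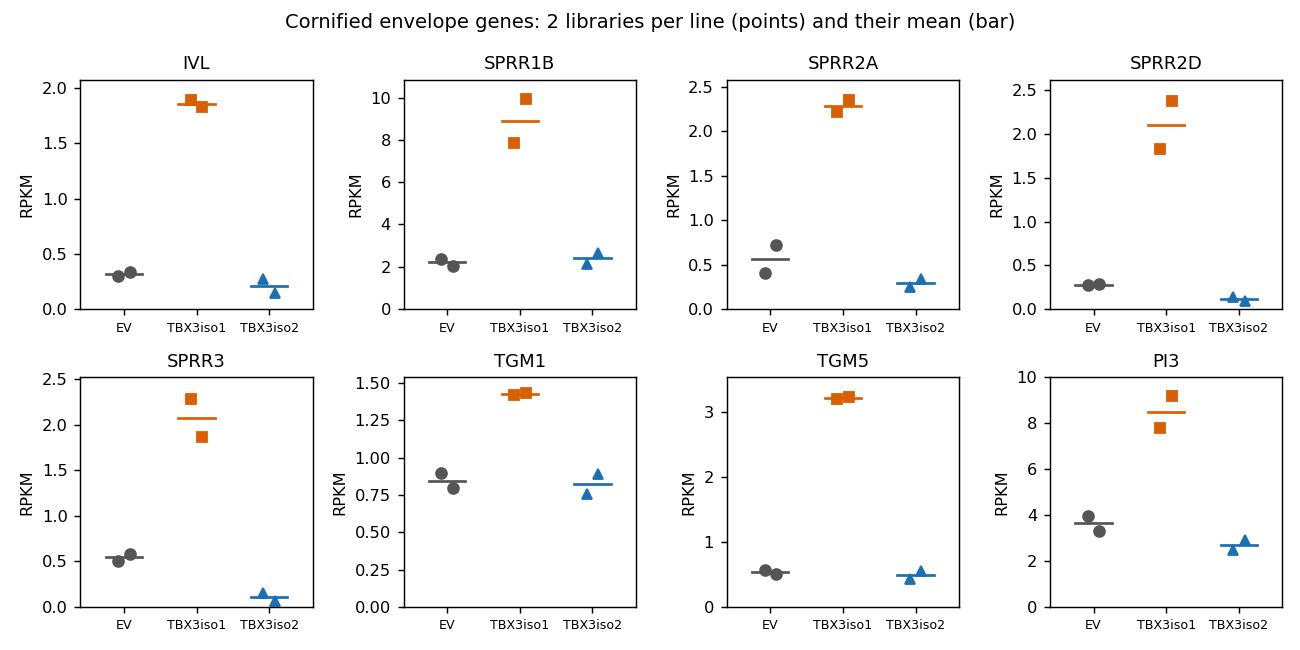
RPKM (linear axis from 0) in the 2 libraries of each line (points) and their mean (bar) for 5 members and for TGM1, TGM5 and PI3. In all 8 panels both TBX3iso1 libraries lie above the other 4, as for IVL at 1.89 and 1.83 RPKM.

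Other genes of the cornified envelope and skin barrier were taken from a list of 28, of which 17 were tested. In TBX3iso1, 4 were higher and 6 lower, where 7.46% of all genes tested were higher and 14.1% lower. In TBX3iso2, 2 were higher and 7 lower, against 8.94% and 12.3% of all genes tested. The median log2 fold changes of the 17 were -0.16 and -0.42, beside -0.05 and -0.00 over all genes tested. *TGM5*, a transglutaminase that crosslinks envelope proteins, rose with the SPRR genes in TBX3iso1, from 0.564 and 0.508 RPKM in EV to 3.20 and 3.23, and was 0.431 and 0.556 in TBX3iso2. *TGM1*, the main envelope transglutaminase, and *PI3*, the secreted elastase inhibitor elafin, also rose in TBX3iso1 (log2 fold change 0.69 and 1.20) and were not called in TBX3iso2 (-0.04 and -0.42). *CSTA* (cystatin A) differed from them, since it rose in both lines (1.35 and 1.78), and *ALOXE3*, an epidermal lipoxygenase, rose in TBX3iso2 (1.03). The genes that fell in both lines were *PPL* (periplakin), *CNFN* (cornifelin), *CASP14*, *KLK5*, *KLK7* and *ABCA12*. *KLK7*, a protease of corneocyte shedding, had the largest fall of this list in TBX3iso2, from 34.4 and 36.3 RPKM to 1.72 and 1.66 (log2 fold change -4.31), and *CASP14*, the caspase of cornification, had log2 fold changes of -2.18 in TBX3iso1 and -3.51 in TBX3iso2. *SCEL* (sciellin) fell in TBX3iso2 (-0.61). The rise of *IVL* and SPRR genes in TBX3iso1 was therefore accompanied by falls of other barrier genes in the same libraries. Of 12 further genes of the epidermal differentiation complex, 9 were in the table and only *TCHH* was tested, at log2 fold changes of 0.07 and 0.01.

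Promoters of rising envelope genes are shown so that their sequences can be read beside those of the S100A genes that moved in both lines. They are the 250 bases before the transcript start, from the RefSeq promoter table (GRCh38.p14), placed on GRCh37 by identical sequence and written 5′ to 3′ on the gene's strand. These 4 genes were picked after their values had been seen. Capitals mark matches on either strand to the AP-1 motif TGANTCA, the T-box motif AGGTGT, the TATA box TATAAA and the C/EBP motif TTGCNNAA.
IVL: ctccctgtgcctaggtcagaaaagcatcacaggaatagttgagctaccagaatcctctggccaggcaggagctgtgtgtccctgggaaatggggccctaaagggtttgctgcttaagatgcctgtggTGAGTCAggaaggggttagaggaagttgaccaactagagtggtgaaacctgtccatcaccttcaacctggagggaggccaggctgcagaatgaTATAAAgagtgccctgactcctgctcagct
SPRR1B: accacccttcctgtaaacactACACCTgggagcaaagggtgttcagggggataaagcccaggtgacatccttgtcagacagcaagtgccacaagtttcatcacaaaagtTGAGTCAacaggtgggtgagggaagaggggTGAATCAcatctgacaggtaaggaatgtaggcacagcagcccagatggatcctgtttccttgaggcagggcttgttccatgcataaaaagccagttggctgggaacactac
SPRR2A: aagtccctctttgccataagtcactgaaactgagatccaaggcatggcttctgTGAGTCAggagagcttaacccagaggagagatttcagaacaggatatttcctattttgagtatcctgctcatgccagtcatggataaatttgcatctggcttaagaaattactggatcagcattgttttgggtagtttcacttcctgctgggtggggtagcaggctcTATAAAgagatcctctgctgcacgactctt
SPRR3: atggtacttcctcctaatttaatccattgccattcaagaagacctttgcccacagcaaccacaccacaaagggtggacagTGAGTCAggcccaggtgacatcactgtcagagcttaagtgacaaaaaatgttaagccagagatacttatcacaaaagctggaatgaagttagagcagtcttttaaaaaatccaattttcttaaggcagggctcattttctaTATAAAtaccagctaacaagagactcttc
The *IVL* promoter (chr1:152880772-152881021, + strand) held an AP-1 match that begins at -123 from the start and a TATA box. *SPRR1B* (chr1:153003429-153003678, + strand) held AP-1 matches at -141 and -111 and a T-box match at -229. *SPRR2A* (chr1:153029989-153030238, - strand) held an AP-1 match at -197 and *SPRR3* (chr1:152973975-152974224, + strand) 1 at -170, each with a TATA box. *SPRR2D* has no entry. Counted over a 300-base window that also takes in the first 50 bases of the transcript, 13 of the 30 member promoters in the table held an AP-1 match (43.3%), beside 7.71% of all 35116 promoters. Of 8 SPRR promoters 6 held it, and of 16 S100A promoters 4. The TATA box was found in 18 of 30 (60%, beside 11.5% of all), the T-box motif in 7 (23.3%, beside 11.4%) and the C/EBP motif in 4 (13.3%, beside 10.5%). A match is a description of letters and not a bound site.

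*S100A8* and *S100A9*, the subunits of the secreted heterodimer calprotectin, fell in both *TBX3* lines and were the only tested members lower in both. The RPKM of *S100A8* was 84.2 and 89.4 in EV, 16.9 and 20.1 in TBX3iso1, and 11.2 and 12 in TBX3iso2. The 3 lines did not overlap, and TBX3iso2 was the lowest. The log2 fold change was -2.23 (SE 0.096, limma adjusted p = 6.77e-06) in TBX3iso1 and -2.90 (SE 0.096, limma adjusted p = 3.04e-06) in TBX3iso2.

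*S100A9* was more abundant, with 625 and 647 RPKM in EV, 241 and 310 in TBX3iso1, and 241 and 282 in TBX3iso2. Both *TBX3* lines lay under EV and overlapped each other. The log2 fold change was -1.22 in TBX3iso1 and -1.29 in TBX3iso2 (SE 0.143 each, limma adjusted p = 0.000502 and 0.000372). The ratio of *S100A8* to *S100A9* RPKM was 0.135 and 0.138 in EV, 0.0704 and 0.0647 in TBX3iso1, and 0.0465 and 0.0424 in TBX3iso2, so the lines did not overlap. All 4 calls against EV held in every setting run.

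*S100A12*, the third member of this myeloid-associated trio and their neighbour on the chromosome, was at 0.388 and 0.369 RPKM in EV, 0.210 and 0.0541 in TBX3iso1, and 0 and 0.187 in TBX3iso2, and was not tested. *S100P*, a related S100 gene on another chromosome, fell as well, from 142 and 150 RPKM in EV to 34.3 and 43.0 in TBX3iso1 and 41.2 and 52.4 in TBX3iso2 (log2 fold change -1.92 and -1.65). *S100B* fell in TBX3iso1 (-0.91) and was at -0.20 in TBX3iso2. Because calprotectin genes are typical of myeloid cells, the list of 6 leukocyte markers was read beside them. Its sum was 12.7 and 11.4 RPKM in EV and 3.76 to 4.47 in the *TBX3* lines, and most of it was *CD14*, at 10.7 and 9.44 RPKM in EV and 2.22 to 2.6 in the others. The pan-leukocyte marker *PTPRC* did not exceed 0.0102 RPKM and *MPO* 0.00784 in any library, *ITGAM* did not exceed 0.165 and *LYZ* 0.0642. *CSF1R* was between 1.21 and 1.89 RPKM.

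**Figure D3:**
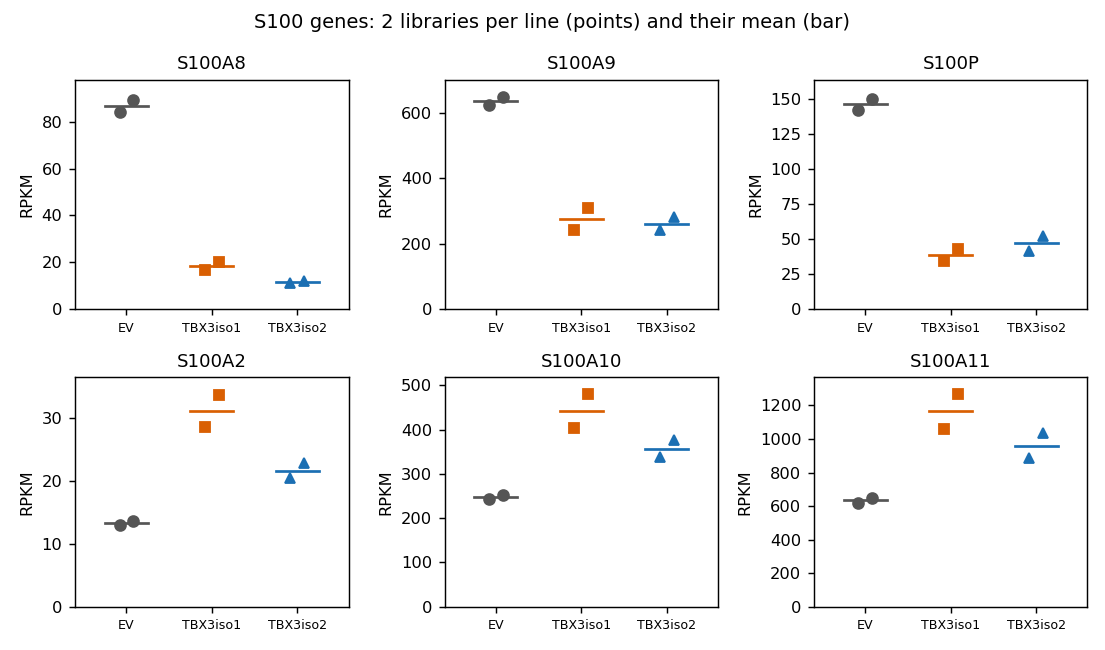
RPKM (linear axis from 0) in the 2 libraries of each line (points) and their mean (bar) for 5 S100A members and S100P. S100A8, S100A9 and S100P lie lower in all 4 TBX3 libraries than in EV, and S100A2, S100A10 and S100A11 lie higher in all 4, with TBX3iso1 above TBX3iso2.

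A second set of S100A genes was higher in both *TBX3* lines. *S100A2*, which is known from basal epithelial cells and as a p53-family target, had 13 and 13.6 RPKM in EV, 28.5 and 33.6 in TBX3iso1, and 20.4 and 22.8 in TBX3iso2. The lines did not overlap, and TBX3iso1 was the highest. The log2 fold change was 1.21 (SE 0.100, limma adjusted p = 0.000102) in TBX3iso1 and 0.69 (SE 0.100, limma adjusted p = 0.00125) in TBX3iso2, and both calls held in every setting run.

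*S100A3*, known from the hair cuticle, had 0.735 and 0.660 RPKM in EV, 2.16 and 2.39 in TBX3iso1, and 1.19 and 1.53 in TBX3iso2. The order of the lines was that of *S100A2*. It rose by 1.57 and 0.86 on the log2 scale (limma adjusted p = 0.00026 and 0.00376), and with 1 RPKM added its TBX3iso2 difference of 0.47 was not called. In the annotation *S100A3* lies inside the span of *S100A4* on the same strand. *S100A4* was at 12.9 to 18.2 RPKM with no difference called (log2 fold change -0.23 and -0.03). The share of words of the *S100A3* transcript that occurred in another gene was 0%. Whether reads of *S100A4* were counted in the low *S100A3* value was not tested.

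*S100A10* and *S100A11*, partners of annexins at the plasma membrane, were abundant and lie side by side at the far end of the cluster. *S100A11* had 618 and 651 RPKM in EV, 1062 and 1269 in TBX3iso1, and 885 and 1036 in TBX3iso2. *S100A10* had 243 and 252 RPKM in EV, 404 and 481 in TBX3iso1, and 337 and 377 in TBX3iso2. In both genes every *TBX3* library lay above EV. *S100A11* rose in both lines, although by a 1.51-fold difference in TBX3iso2 that was barely past the threshold and was kept in 10 of 16 settings (log2 fold change 0.87 and 0.59, limma adjusted p = 0.00257 and 0.0132). That call was lost without either EV library (0.56 and 0.63) and without TBX3iso2 replicate 2 (0.48), and without EV replicate 1 the call in TBX3iso1 was lost as well (limma adjusted p = 0.0502). *S100A10* rose in TBX3iso1 (0.83, limma adjusted p = 0.0012), and in TBX3iso2 its 1.44-fold difference lay under the fold threshold (0.53, limma adjusted p = 0.009), which it passed without TBX3iso2 replicate 1 (0.61).

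*S100A1*, best known from heart and skeletal muscle, had its lines in the order seen for *SPRR2A*, *SPRR2D* and *SPRR3*. It had 1.10 and 0.676 RPKM in EV, 1.73 and 1.78 in TBX3iso1, and 0.410 and 0.635 in TBX3iso2. TBX3iso1 was the highest and TBX3iso2 the lowest. It rose in TBX3iso1 (log2 fold change 0.94, limma adjusted p = 0.0186) and was at -0.66 in TBX3iso2 (limma adjusted p = 0.0656). The call in TBX3iso1 was lost without EV replicate 2 (0.63, limma adjusted p = 0.129) and without TBX3iso1 replicate 2 (limma adjusted p = 0.0593).

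The other 6 tested S100A genes were called in neither line. *S100A6*, the most abundant member, had 1297 and 1325 RPKM in EV, 1600 and 1953 in TBX3iso1, and 1333 and 1649 in TBX3iso2. All *TBX3* libraries lay above EV, yet the spread within the *TBX3* lines was wide (log2 fold change 0.43 and 0.18, limma adjusted p = 0.0783 and 0.434). *S100A16* was between 220 and 345 RPKM and *S100A13* between 53.3 and 83.2, with TBX3iso1 differences of 0.51 and 0.43 that were under the fold threshold. *S100A14* was between 57.9 and 90.1 RPKM and lower in the *TBX3* libraries than in EV (-0.33 and -0.48). *S100A4*, a marker of mesenchymal and metastatic cells, was between 12.9 and 18.2 RPKM, with differences of -0.23 (95% interval -0.53 to 0.07) in TBX3iso1 and -0.03 (-0.33 to 0.27) in TBX3iso2. *S100A5* was between 0.380 and 0.899 RPKM, with differences of -0.65 and -0.23. The annotated spans of *S100A13* and *S100A1* overlap on opposite strands, and 41.0% of the *S100A13* words occur in a second annotated gene at the same place.

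**Figure D4:**
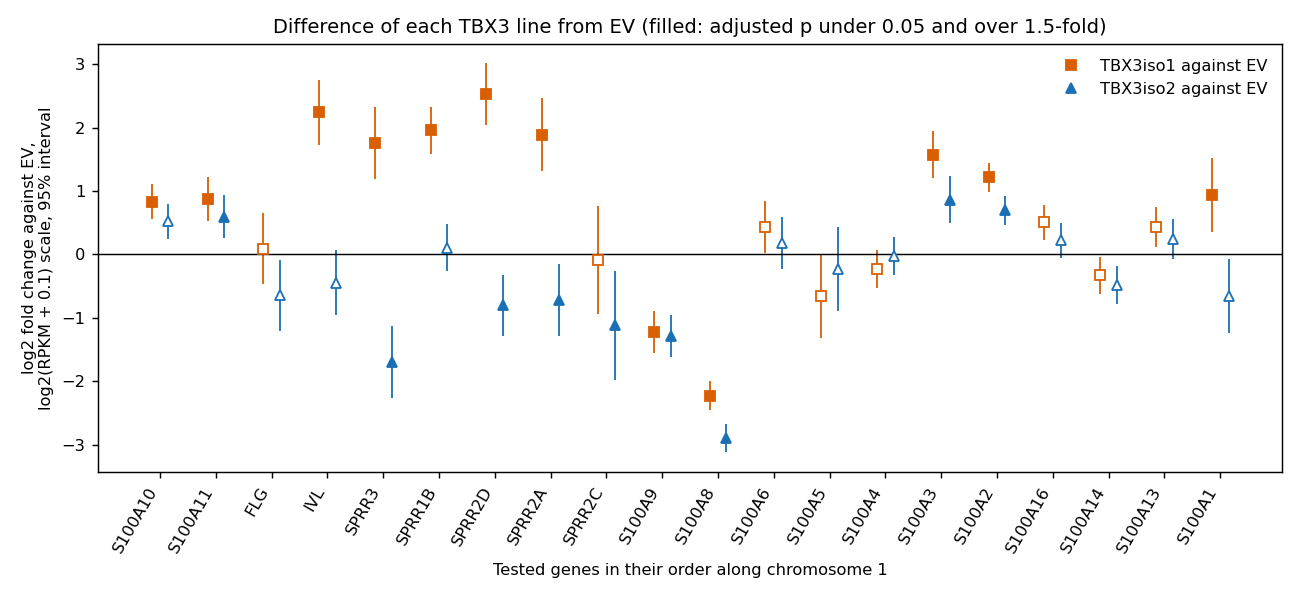
Log2 fold change of each TBX3 line against EV for the 20 tested genes in their order along chromosome 1, with 95% intervals (filled symbols are called). IVL and its SPRR neighbours SPRR3, SPRR1B, SPRR2D and SPRR2A are high in TBX3iso1 only, S100A9 and S100A8 are low in both lines, and the pair S100A10 and S100A11 and the pair S100A3 and S100A2 are above 0 in both.

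Genes with a like pattern were often neighbours. From *IVL* to *SPRR2G*, a span of 0.242 Mb, the tested genes in order were *IVL*, *SPRR3*, *SPRR1B*, *SPRR2D*, *SPRR2A* and *SPRR2C*, and the first 5 were higher in TBX3iso1. *S100A9* and *S100A8* are 29 kb apart with only *S100A12* of the members between them, and *S100A3* and *S100A2* are adjacent. The tested neighbours *S100A6*, *S100A5* and *S100A4*, which lie between the falling and the rising pair, were not called in either line. This order is a description, and nearby genes were not tested as a group.

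Promoters of the 5 S100A genes called in the same direction in both lines are shown for comparison, with the same motifs in capitals.
S100A2: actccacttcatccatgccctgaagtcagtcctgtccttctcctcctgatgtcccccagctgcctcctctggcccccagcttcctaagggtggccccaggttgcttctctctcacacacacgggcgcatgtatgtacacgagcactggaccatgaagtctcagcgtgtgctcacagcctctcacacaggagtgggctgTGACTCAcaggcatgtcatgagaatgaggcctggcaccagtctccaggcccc
S100A3: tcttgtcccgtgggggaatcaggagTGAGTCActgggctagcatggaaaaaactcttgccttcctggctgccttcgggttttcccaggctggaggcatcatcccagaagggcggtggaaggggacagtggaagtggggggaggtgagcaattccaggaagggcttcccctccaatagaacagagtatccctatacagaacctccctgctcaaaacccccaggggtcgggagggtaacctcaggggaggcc
S100A11: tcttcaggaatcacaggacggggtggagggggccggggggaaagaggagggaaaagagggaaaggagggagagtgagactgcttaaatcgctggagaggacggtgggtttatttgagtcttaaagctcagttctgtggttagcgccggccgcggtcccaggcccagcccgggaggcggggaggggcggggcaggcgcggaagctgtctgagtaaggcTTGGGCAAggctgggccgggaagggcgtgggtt
S100A8: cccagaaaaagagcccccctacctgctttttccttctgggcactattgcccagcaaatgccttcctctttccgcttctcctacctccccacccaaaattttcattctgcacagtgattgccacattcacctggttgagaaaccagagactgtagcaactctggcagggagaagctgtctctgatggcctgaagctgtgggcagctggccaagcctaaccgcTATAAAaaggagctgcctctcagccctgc
S100A9: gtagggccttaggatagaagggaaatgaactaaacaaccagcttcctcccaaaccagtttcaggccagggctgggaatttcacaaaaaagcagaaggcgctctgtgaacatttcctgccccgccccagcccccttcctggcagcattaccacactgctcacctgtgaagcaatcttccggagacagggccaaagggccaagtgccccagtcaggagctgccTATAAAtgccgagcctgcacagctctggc
*S100A2* (chr1:153538321-153538570, - strand) held an AP-1 match at -52 and *S100A3* (chr1:153521735-153521984, - strand) 1 at -225. *S100A11* (chr1:152009481-152009730, - strand) held a C/EBP match at -33. The falling genes *S100A8* (chr1:153363550-153363799, - strand) and *S100A9* (chr1:153330080-153330329, + strand) each held a TATA box at -29 and no AP-1 or T-box match in this window.

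Of 9 tested S100 partners and receptors, 0 were called in TBX3iso1 and 2 (22.2%) in TBX3iso2 by limma. Over all genes tested, 21.5% and 21.2% were called, so the TBX3iso2 share was near that of all genes. The median log2 fold changes of the 9 were -0.01 and -0.05. At an unadjusted limma p under 0.05, 2 of them differed in TBX3iso1. These were *CACYBP* (0.43, limma adjusted p = 0.00779) and *ANXA1* (-0.33, limma adjusted p = 0.0268), both under the fold threshold. In TBX3iso2, *CACYBP*, which binds *S100A6*, was higher (0.59) and *ANXA1*, a partner of *S100A11*, was lower (-0.70). *ANXA2*, the partner of *S100A10*, was between 426 and 551 RPKM in all libraries. The receptors *AGER* (0.697 to 1.01 RPKM) and *TLR4* (5.53 to 7.04 RPKM) were not called.

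Of 20 tested regulators of keratinocyte differentiation, 3 were higher and 9 lower in TBX3iso1, and 3 were higher and 8 lower in TBX3iso2. Over all genes tested, 7.46% were higher and 14.1% lower in TBX3iso1, and 8.94% and 12.3% in TBX3iso2. The median log2 fold changes of the regulators were -0.51 and -0.50, beside -0.05 and -0.00 over all genes tested. *TP63*, the master regulator of stratified epithelium, had 3.04 and 3.66 RPKM in EV, 0.330 and 0.243 in TBX3iso1, and 0.332 and 0.267 in TBX3iso2. It fell in both *TBX3* lines (log2 fold change -3.16 and -3.11). *GRHL1*, *CEBPA*, *CEBPB*, *FOSL2* and *ELF3* also fell in both, and *OVOL1*, *FOSL1* and *JUN* rose in both. *GRHL2*, *FOS* and *JUND* fell in TBX3iso1. *PRDM1*, which acts late in keratinocyte differentiation, fell in TBX3iso2 and was not called in TBX3iso1. Of the AP-1 subunits, *FOSL1* rose from 163 and 158 RPKM to 242 and 242 in TBX3iso1 and to 393 and 371 in TBX3iso2.

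Compared directly, TBX3iso2 had 8 members lower than TBX3iso1 and 0 higher, where 2.82% of all genes tested were lower and 3.47% higher. At an unadjusted p under 0.05, 0 members were higher in TBX3iso2. The median log2 difference of the tested members was -0.59, beside 0.05 over all genes tested. *IVL*, *SPRR2A*, *SPRR2D* and *SPRR3* passed the level filter only through their TBX3iso1 values. The count and this median were therefore bound to lean to lower values in TBX3iso2. With 0.1 RPKM added, the largest differences were those of *SPRR3* (-3.45, SE 0.244, limma adjusted p = 0.000268) and *SPRR2D* (-3.33, SE 0.209, limma adjusted p = 0.000168). *IVL* (-2.68), *SPRR2A* (-2.61), *SPRR1B* (-1.85) and *S100A1* (-1.60) were lower too, and these 6 calls held in every setting that tested the gene. *S100A3* (-0.71, limma adjusted p = 0.0252) and *S100A8* (-0.67, limma adjusted p = 0.00508) were lower by less. The *S100A3* call was kept in 7 of 15 settings and was lost without any of the EV and TBX3iso1 libraries or TBX3iso2 replicate 1 (-0.78 to -0.54), and that of *S100A8* was lost without TBX3iso1 replicate 2 (-0.55). *S100A2* differed by -0.52, under the fold threshold, and *S100A9* by -0.07 with a 95% interval of -0.40 to 0.26. Of the other barrier genes, *TGM1*, *TGM5*, *PI3*, *CASP14*, *KLK7* and *CALML5* were lower in TBX3iso2 than in TBX3iso1. *FOS*, *FOSL1* and *JUND* were higher and *PRDM1* was lower.

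The 13 untested members were low in every library. *S100A7* (psoriasin) was between 0.154 and 0.653 RPKM, with EV alone spanning this range, and *SPRR1A* reached 0.817. *LCE3D* reached 0.241 RPKM in TBX3iso1 replicate 1 and was listed at 0 in both EV libraries. *LCE3E*, *LCE5A*, *RPTN*, *S100A7A*, *SPRR2B*, *SPRR2E*, *SPRR2G* and *SPRR4* did not exceed 0.1 RPKM, and *SPRR2F* reached 0.101. For *SPRR2E*, 1 alignment corresponds to about 0.03 RPKM, and *SPRR2E*, *SPRR2F*, *SPRR2G* and *SPRR4* had fewer than 3 alignments in each library, so differences in these genes were not detectable at this depth.

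Replicates of the *TBX3* lines differed in a way that was related to transcript length, and most members are short. All 13 tested S100A genes were higher in replicate 2 than in replicate 1 in TBX3iso1 and in TBX3iso2, and 8 of 13 in EV. Over all tested genes with transcripts of at most 1000 bases, the median difference of replicate 2 from replicate 1 was 0.01 in EV, 0.23 in TBX3iso1 and 0.24 in TBX3iso2 on the log2 scale, and for the longest transcripts, in the rightmost class of the plot of replicate difference by length, it was -0.04, -0.12 and -0.18. The same short genes had a median log2 fold change of 0.12 in TBX3iso1 and 0.10 in TBX3iso2 against EV. Among 507 short genes that averaged at least 10 RPKM, to which *S100A10* and *S100A11* belong, it was 0.21 and 0.16, and 8.48% and 8.68% were called higher. *S100A10* was at 0.83 and 0.53 and *S100A11* at 0.87 and 0.59, and the part of transcript length in these values was not tested. With the length trend removed, *S100A11* in TBX3iso2 fell just under the fold threshold (0.58).

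**Figure D5:**
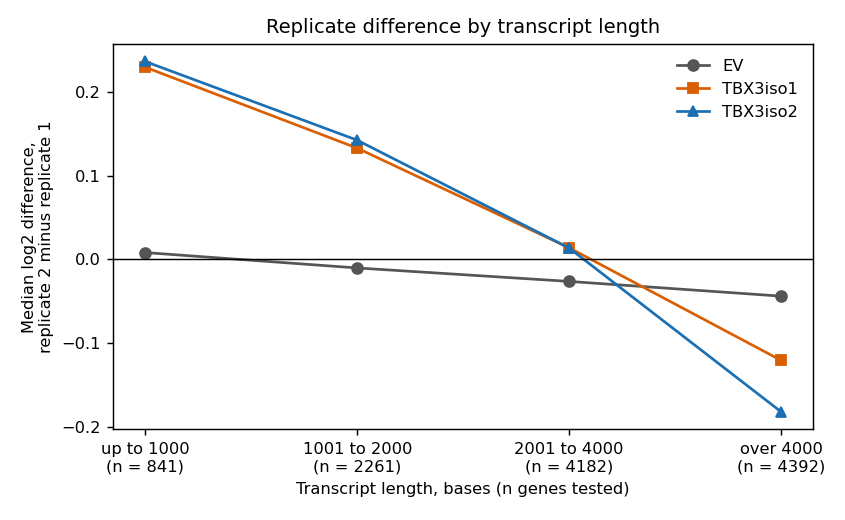
Median log2 difference of replicate 2 from replicate 1 over all tested genes in 4 classes of transcript length, 1 line of points per cell line. In TBX3iso1 and TBX3iso2 the median goes from 0.23 and 0.24 in the shortest class to -0.12 and -0.18 in the longest, while EV stays between 0.01 and -0.04.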

How the data were processed

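The authors prepared stranded mRNA libraries of the 3 lines, sequenced 51-base paired-end reads, used TopHat within Galaxy for alignment to hg19, kept up to 10 alignments per read, and derived gene levels with Partek Genomics Suite. The authors deposited linear RPKM and the alignment total of each library. Versions and the gene annotation are not given in the sources used here. As gene counts were not used here, no count test was run.

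Values were taken to log2(RPKM + 0.1), so folds of low genes are understated. Genes averaging at least 0.5 RPKM (12805) entered limma 3.58.1 (R 4.3.3), with 1 mean per line, all 6 libraries sharing 1 estimate of the spread, a trend and Benjamini-Hochberg adjustment. Calls needed a fold above 1.5 and an adjusted p below 0.05. With 2 libraries per line no permutation test is informative. The model was tested on simulated data.

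Every member is named, with its levels where it was tested. Of the other lists, the members called against EV are named, except for 1 regulator that is counted but not reported here, and promoters are shown for members called the same way in both lines and for 4 envelope genes chosen after their values were seen. The members and lists were chosen with earlier results of these data known. Transcript lengths and positions came from GENCODE on GRCh37. Alternatives covered the added constant, the filter, the scaling, the libraries and the model.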

Additional observations from a re-analysis of the deposited data

Results flagged for a closer look

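The direct comparison of the *TBX3* lines tests whether their differences from EV are unlike, but isoform, transfected pool and *TBX3* level cannot be told apart. In this comparison, 8 tested members differed, each lower in TBX3iso2 than in TBX3iso1 by limma with Benjamini-Hochberg adjustment. Among them, *IVL*, *SPRR2A*, *SPRR2D* and *SPRR3* passed the level filter only through their TBX3iso1 values, so they had to differ between lines. The log2 differences were -3.45 for *SPRR3*, -3.33 for *SPRR2D*, -2.68 for *IVL*, -2.61 for *SPRR2A*, -1.85 for *SPRR1B*, -1.60 for *S100A1*, -0.71 for *S100A3* and -0.67 for *S100A8*. In the first 6 genes TBX3iso1 lay above EV, and of these only *SPRR1B* lay above EV in TBX3iso2, by 0.11. *S100A3* was above EV and *S100A8* under EV in both lines. A single deviating library could not be looked for, since each line has 2 libraries.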

How the results depend on the processing

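Of the tested members called in each comparison, 10 of 12 kept their call in every alternative that tested them for TBX3iso1 against EV, 3 of 9 for TBX3iso2 against EV and 6 of 8 between the isoforms. The 10 and the 6 include *IVL*, *SPRR2A*, *SPRR2D* and *SPRR3*. As these passed the level filter only through TBX3iso1, a difference between lines was built into settings with that filter. The count called in TBX3iso2 against EV was 4 with 1 RPKM added. With a filter at a mean of 2 RPKM, which left 11 members, the counts were 6, 4 and 2. Leaving out 1 library at a time gave 11 to 14, 6 to 10 and 7 to 10 called members, where a line left with 1 library is assumed to vary like the others. Replicate numbers may only name the libraries: their deviations correlated at 0.22, 0.114 and 0.499 between lines across genes, and a replicate block gave 13, 11 and 10 called members, adding *S100A5* in TBX3iso1, *FLG* (-0.65, limma adjusted p = 0.00397) and *S100A1* in TBX3iso2, and *FLG* (-0.74, limma adjusted p = 0.00613) and *SPRR2C* between the isoforms. Removing a transcript length trend, an alternative chosen after seeing the data, gave 13, 9 and 10.

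Directions turned only in differences that were not called. Quantile normalization gave 0.16 for *SPRR2C* in TBX3iso1 and -0.04 for *S100A6* in TBX3iso2. With 1 library left out, the log2 fold change ranged from -0.27 to 0.10 for *SPRR2C* and from -0.19 to 0.37 for *FLG* in TBX3iso1 against EV, and from -0.13 to 0.07 for *S100A4*, from -0.62 to 0.17 for *S100A5* and from -0.05 to 0.26 for *SPRR1B* in TBX3iso2 against EV. Between the isoforms it ranged from -0.38 to 0.01 for *S100A13* and from -0.25 to 0.11 for *S100A9*. The cause was not tested. Leaving out 1 library added calls for *S100A13* (0.62), *S100A16* (0.63) and *S100A5* (-0.65) in TBX3iso1, for *FLG*, *IVL*, *S100A1*, *S100A10* and *S100A14* (-0.63) in TBX3iso2, and for *S100A2* (-0.64 and -0.60), *FLG* (-1.02 and -0.98) and *SPRR2C* (-1.65) between the isoforms. Depth limits low SPRR values, with 2 to 10.9 alignments per library for the tested *SPRR2C*.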
